A study of Homo sapiens with 6 samples.

Results

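The HOX genes are homeobox transcription factor genes that lie in 4 clusters, HOXA, HOXB, HOXC and HOXD, on separate chromosomes. They were taken as every gene of the deposited table whose symbol is HOX, a cluster letter and a number, which gave 32 genes of 35554 (11 in HOXA, 8 in HOXB, 9 in HOXC and 4 in HOXD). RNA sequencing compared LNCaP, an androgen-dependent human prostate cancer cell line of metastatic origin, with LNCaP-enzaR, a derivative selected for growth in enzalutamide, an antagonist of the androgen receptor. Each line was represented by 3 flasks. LNCaP-enzaR came from parental LNCaP by long culture with enzalutamide and was later maintained at a reduced concentration, and the labels do not state whether the drug was present when the flasks were harvested. Both groups derive from LNCaP, and neither has a labelled transgene or deletion. Each is a single culture history, so p-values measure the spread between flasks of one selected line and one parent. HOXB1, HOXB4, HOXD1, HOXD4, HOXD9, HOXD10 and HOXD11 were not analysed here.

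HOX proteins bind DNA through the homeodomain, commonly together with cofactors of the TALE homeobox class, the PBX, MEIS and PKNOX proteins. In the embryo the genes at one end of a cluster (low numbers) are used first and in anterior regions, and those at the other end (high numbers) later and in posterior regions. Genes with the same number in different clusters are paralogues and form a paralogue group. The adult prostate arises from a posterior region and keeps expression of group 13 genes, of which HOXB13 is the one that marks luminal prostate cells and binds chromatin together with the androgen receptor. Polycomb complexes hold HOX clusters silent, Trithorax-type methyltransferases keep them active, and retinoic acid and caudal (CDX) factors switch them on in development.

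The values were counts per gene, shown also as CPM (counts per 1000000 counts, with library sizes scaled by the TMM method). The libraries held 77759122 to 98616465 counts, so that 3 counts correspond to 0.0302 to 0.0382 CPM. Mitochondrial genes held 6.87% ± 0.174 (SD, n = 3) of counts in parental and 15.1% ± 0.415 (SD, n = 3) in LNCaP-enzaR libraries, and the number of HOX genes past the threshold, in each direction, was the same when those genes were left out. All 10 luminal prostate markers examined had a mean of at least 1 CPM in both lines, with summed levels of 5060 to 5177 CPM in parental and 4213 to 4350 CPM in LNCaP-enzaR libraries. None of 5 immune markers reached 1 CPM in either line, and their sum stayed at or below 0.216 CPM. The sum of the 8 fibroblast markers in the table was 17.6 to 20.6 CPM in parental and 14.1 to 15.7 CPM in LNCaP-enzaR libraries. COL1A1 made up most of the parental sum and fell, whereas VIM, PDGFRB and LUM rose, and DCN, PDGFRA and THY1 had 0 to 20 counts in a library. One endothelial gene, VWF, made up most of an endothelial sum of 3.94 to 6.10 CPM, and a basal sum of 0.433 to 1.71 CPM came mainly from KRT14. The part of these genes in the HOX results was not tested. In these bulk samples fewer cells expressing a gene and less RNA per cell cannot be told apart.

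HOX genes changed in both directions between the lines. No tested HOXA gene rose, both tested HOXD genes rose, and HOXB and HOXC held genes of both kinds. Of the 21 HOX genes with enough counts to be tested, 14 (66.7%) were past the threshold, compared with 42.7% of the 19711 genes tested. The threshold combined a 1.5-fold difference or more with an adjusted p not above 0.05 in edgeR's quasi-likelihood test (BH, Benjamini-Hochberg adjustment over all genes tested). HOXB6, HOXB9, HOXC4, HOXC8, HOXD8 and HOXD13 (6 genes, 28.6%, against 23.3% of all genes) were higher in LNCaP-enzaR. HOXA3, HOXA4, HOXA5, HOXA6, HOXA11, HOXB13, HOXC10 and HOXC12 (8 genes, 38.1%, against 19.5% of all genes) were lower. Those not past the threshold included HOXA10, HOXB7, HOXC5, HOXC6, HOXC9 and HOXC13. The 11 HOX genes that were not tested had 0 to 25 counts in a library. Values of the 3 parental and the 3 LNCaP-enzaR libraries did not overlap for 15 of the 21 (71.4%), close to the 70.6% of all genes tested. The median log2 fold change (LNCaP-enzaR over parental) over the 21 genes was -0.12, and that over all genes tested was 0.01. Of the 6 higher genes, HOXB6, HOXC8, HOXC4, HOXD8 and HOXD13 all lay under 1 CPM in parental cells. HOXA3, HOXA4, HOXA11, HOXC8, HOXC10, HOXD8 and HOXD13 had enough counts to be tested only through the line in which they were high. This largely fixed their direction, so the HOX shares set against all genes are descriptions. Where at least 10 counts in every library were required, 7 of 12 tested HOX genes were past the threshold (3 higher and 4 lower).

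**Figure D1:**
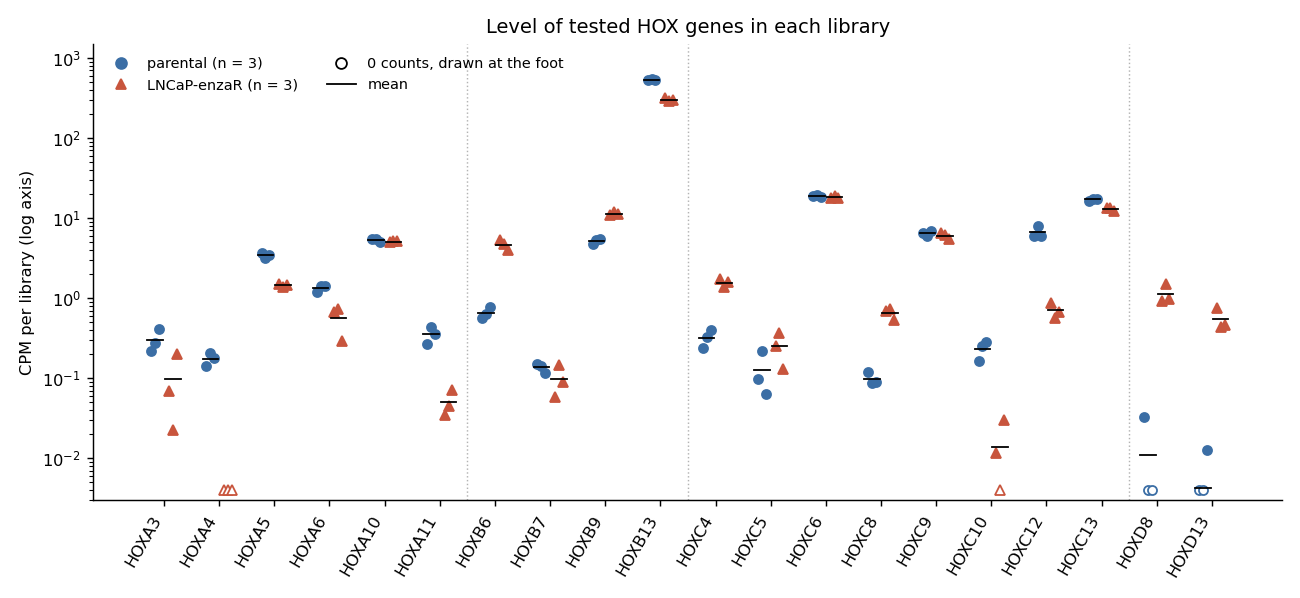
Level of tested HOX genes in CPM (log axis) in the 3 parental (circles) and 3 LNCaP-enzaR (triangles) libraries, with the mean of each line as a bar and libraries with 0 counts drawn open at the foot. HOXB13 ranges from 289 to 542 CPM, and HOXA4, HOXC10, HOXD8 and HOXD13 are at or near 0 in one line only.

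HOXB13 dominated the HOX transcripts of both lines. Per kilobase of exon, the level of HOXB13 was 177 CPM in parental and 99.4 CPM in LNCaP-enzaR cells, while the next gene, HOXC13, reached 7.28 and 5.49 CPM per kilobase. The gene (ENSG00000159184.8, GRCh38 chromosome 17, 48724763 to 48728750, minus strand) had 536, 542 and 539 CPM in the parental libraries and 321, 289 and 297 CPM in the LNCaP-enzaR libraries. Every LNCaP-enzaR library was thus below every parental one, with means of 539 ± 3.22 and 302 ± 16.9 CPM (SD, n = 3 each). The log2 fold change was -0.84 ± 0.05 (SE; BH-adjusted p in edgeR 5.62e-09), a 1.79-fold lower level. HOXB13 made up 88.5% to 89.0% of the counts of all HOX genes in parental libraries and 80.7% to 82.6% in LNCaP-enzaR libraries.

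The sum over all 32 HOX genes was 602, 613 and 608 CPM in the parental and 388, 358 and 360 CPM in the LNCaP-enzaR libraries, 1.65-fold lower on the means. Without HOXB13 the sums were 68.2 ± 1.98 CPM in parental and 66.8 ± 2.89 CPM in LNCaP-enzaR libraries (SD, n = 3 each), and the libraries of the lines overlapped. With 3 libraries against 3 the smallest two-sided p of an exact permutation test is 0.1, so these sums are given without a test. Within the near-equal sum without HOXB13 the clusters differed. The HOXA sum was 12.1 ± 0.0465 CPM in parental and 8.40 ± 0.243 CPM in LNCaP-enzaR libraries, and the HOXC sum 49.97 ± 1.70 and 40.3 ± 1.73 CPM. The sum of the other HOXB genes was 6.13 ± 0.436 CPM in parental and 16.4 ± 0.792 CPM in LNCaP-enzaR libraries, and the HOXD sum 0.0150 ± 0.0163 and 1.70 ± 0.217 CPM (mean ± SD, n = 3 each). In each of these 4 sums the libraries of the lines did not overlap.

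**Figure D2:**
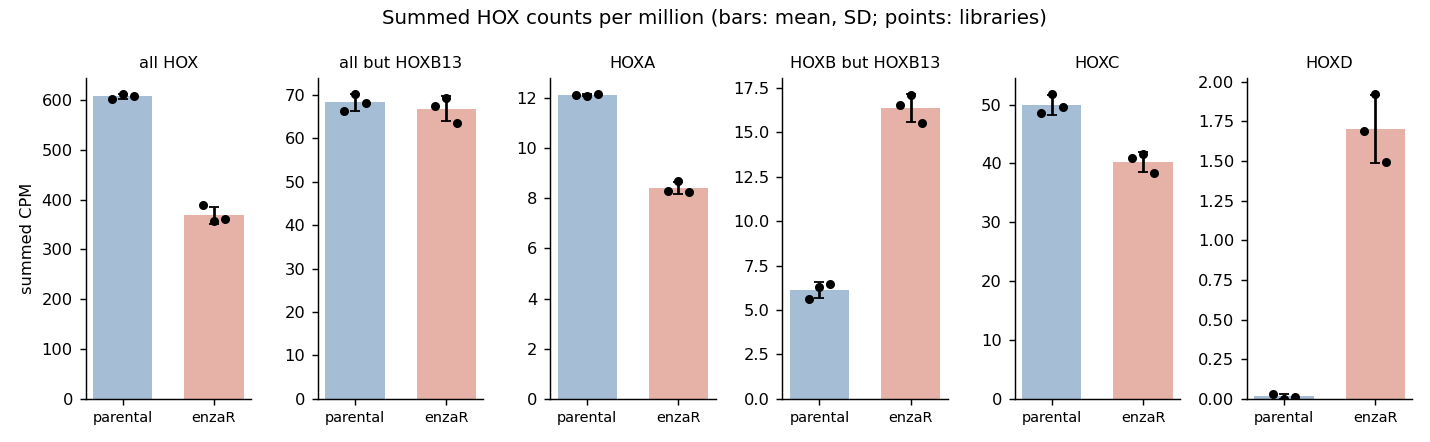
Summed CPM of all 32 HOX genes, of all but HOXB13, of HOXA, of HOXB without HOXB13, of HOXC and of HOXD. Bars show the mean of 3 libraries, error bars the SD and points the libraries, each panel on its own linear axis from 0. The sum of all HOX genes is lower in LNCaP-enzaR, the sum without HOXB13 overlaps between the lines, and the HOXB genes other than HOXB13 and the HOXD genes are higher.

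In the HOXA cluster (GRCh38 chromosome 7) no tested gene was higher and 5 of 7 were lower in LNCaP-enzaR, with a median log2 fold change of -1.25. The lower genes were HOXA3, HOXA4, HOXA5 and HOXA6, which follow each other along the chromosome, and HOXA11. Of these, HOXA3, HOXA4 and HOXA11 had enough counts to be tested only through the parental libraries. HOXA5, a gene needed for development of the lung, had 3.68, 3.18 and 3.44 CPM in parental and 1.52, 1.39 and 1.45 CPM in LNCaP-enzaR libraries. The 2 sets of libraries were well apart, and the log2 fold change was -1.24 ± 0.14 (SE; BH-adjusted p in edgeR 2.75e-06). HOXA5 (ENSG00000106004.5) shared no exonic base with another gene. HOXA6 had 1.19, 1.42 and 1.40 CPM in parental and 0.672, 0.725 and 0.292 CPM in LNCaP-enzaR libraries. Its log2 fold change was -1.25 ± 0.30 (SE; BH-adjusted p in edgeR 0.00185), with library 3 of LNCaP-enzaR lower than the other two.

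HOXA3, a gene that patterns the pharyngeal arches, had few counts, 20, 25 and 32 counts in parental and 6, 2 and 20 counts in LNCaP-enzaR libraries. Libraries 1 of parental and 3 of LNCaP-enzaR had the same count of 20, although at 0.216 and 0.202 CPM they did not overlap. The log2 fold change of HOXA3 was -1.56 ± 0.62 (SE; BH-adjusted p in edgeR 0.0392), and it was not past the threshold when parental library 2 or 3 or LNCaP-enzaR library 1 or 2 was left out, with an adjusted p in edgeR of up to 0.145. When LNCaP-enzaR library 3 was left out, HOXA3 had a log2 fold change of -2.66. HOXA11, which acts in development of the kidney, the uterus and the forearm, had 25, 40 and 28 counts in parental and 3, 4 and 7 in LNCaP-enzaR libraries. All LNCaP-enzaR libraries were far below the parental ones, with a log2 fold change of -2.77 ± 0.53 (SE; BH-adjusted p in edgeR 0.000315).

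HOXA4 (ENSG00000197576.14, chromosome 7, 27128507 to 27130780, minus strand) was the HOX gene with no count in LNCaP-enzaR. It had 13, 19 and 14 counts in the parental libraries and 0 in each LNCaP-enzaR library. Against the limit that 0 counts allow, 3 counts per library, its level was at least 5.33-fold lower in LNCaP-enzaR (adjusted p in edgeR 0.000204). These limits cover counting error only. HOXA10, which acts in the uterus and in blood progenitors, was not among the lower genes. HOXA10 had 5.52, 5.46 and 5.003 CPM in parental and 4.98, 5.15 and 5.16 CPM in LNCaP-enzaR libraries, which overlapped (log2 fold change -0.06 ± 0.10, SE; BH-adjusted p in edgeR 0.597). HOXA2, HOXA7, HOXA9 and HOXA13 had too few counts to be tested. HOXA9, the gene between HOXA7 and HOXA10, had 7, 17 and 14 counts in parental and 4, 2 and 6 in LNCaP-enzaR libraries.

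Antisense genes run through the HOXA cluster, and because the strand setting of the counting is not given in the sources used here, reads of overlapping exons cannot be assigned to one strand. In HOXA4, 47.8% of exonic bases lay in exons of other genes, including HOXA-AS2 and HOXA-AS3, and the share was 40.1% in HOXA6 (HOXA-AS3), 27.2% in HOXA11 (HOXA11-AS), 26.3% in HOXA10 (HOXA10-AS) and 19.8% in HOXA3 (HOXA-AS2, HOXA-AS3). HOXA-AS2 and HOXA-AS3 were themselves lower, with log2 fold changes of -2.88 ± 0.64 and -1.77 ± 0.32 (SE; BH-adjusted p in edgeR 0.00110 and 0.000184). Without LNCaP-enzaR library 3, which held 9 counts of HOXA-AS2 against 1 and 2 in libraries 1 and 2, its log2 fold change was -4.13. HOXA-AS3 had 73, 65 and 67 counts in parental and 17, 17 and 29 in LNCaP-enzaR libraries, so the coding and the antisense genes of the HOXA3 to HOXA6 stretch were lower together. HOXA11-AS was not past the threshold, with a log2 fold change of -0.25.

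The promoters of HOXA4 and HOXA11 are shown because these genes had the fewest counts in LNCaP-enzaR among the HOXA genes that fell. The sequences are the bases before the annotated start in RefSeq (GRCh38.p14), 5′ to 3′ on the strand of the gene, and 15 of the 32 HOX genes had an entry in the table used. The HOXA4 stretch lies at chr7:27130781-27131007 (minus strand, 227 bases) and the HOXA11 stretch at chr7:27185233-27185482 (minus strand, 250 bases). Capitals mark matches to any of 5 searched motifs on either strand: TATAAA, found in many core promoters, CCAATAAA, the motif of HOXB13, TGATTNAT, bound by PBX with HOX proteins, AGGTCA, a half-site of nuclear receptors, and AGAACA, a half-site of the androgen receptor.
HOXA4: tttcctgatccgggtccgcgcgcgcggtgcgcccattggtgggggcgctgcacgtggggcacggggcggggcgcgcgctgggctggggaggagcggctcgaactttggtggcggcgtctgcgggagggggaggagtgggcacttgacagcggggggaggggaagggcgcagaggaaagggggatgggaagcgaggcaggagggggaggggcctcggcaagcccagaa
HOXA11: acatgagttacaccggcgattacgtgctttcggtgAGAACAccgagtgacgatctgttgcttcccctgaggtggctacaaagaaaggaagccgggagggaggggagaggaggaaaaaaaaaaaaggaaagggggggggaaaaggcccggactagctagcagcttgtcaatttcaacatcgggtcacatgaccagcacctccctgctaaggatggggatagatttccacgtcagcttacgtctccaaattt
The HOXA4 stretch held none of the 5 motifs. It had 73.6% GC and 23 CpG dinucleotides, an observed over expected ratio of 0.903. The HOXA11 stretch held 1 AGAACA, which starts 215 bases before the gene and lies in an exon of the antisense gene HOXA11-AS. AGAACA occurred in 12.4% of all promoters, taken as the 250 bases before the start, and in 2 of the 15 HOX promoters. The ratio of observed to expected CpG had a median of 0.888 over the 15 HOX promoters, from 0.609 to 1.34, against 0.556 over all 27305 promoters.

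In the HOXB cluster (chromosome 17, 48540894 to 48728750) HOXB6 and HOXB9 rose while HOXB13 at the far end fell. HOXB6 (ENSG00000108511.10, 48595751 to 48604992, minus strand) had 0.562, 0.627 and 0.764 CPM in parental and 5.27, 4.72 and 4.02 CPM in LNCaP-enzaR libraries. The lowest LNCaP-enzaR library was above every parental one, and the log2 fold change was 2.85 ± 0.17 (SE), a 7.20-fold higher level (adjusted p in edgeR 2.85e-09). Of its exonic bases 32.9% lay in exons of HOXB3 and HOXB-AS3, and these genes had 0 to 12 and 0 to 3 counts per library against 399 to 455 for HOXB6 in LNCaP-enzaR. HOXB9, a gene of thoracic patterning, had 4.80, 5.32 and 5.41 CPM in parental and 10.9, 11.8 and 11.3 CPM in LNCaP-enzaR libraries. Its log2 fold change was 1.13 ± 0.09 (SE; BH-adjusted p in edgeR 6.63e-08), and no exonic base was shared with another gene. Between these genes HOXB7 stayed low, with 14, 13 and 9 counts in parental and 5, 13 and 9 in LNCaP-enzaR libraries (log2 fold change -0.47 ± 0.57, SE; BH-adjusted p in edgeR 0.492).

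HOXB2, HOXB3, HOXB5 and HOXB8 were not tested. HOXB5 had 0 counts in all parental libraries and 6, 6 and 4 in LNCaP-enzaR libraries. HOXB8 had 10, 6 and 6 counts in parental and 19, 25 and 4 in LNCaP-enzaR libraries, which overlapped. PRAC1 and PRAC2, small genes between HOXB9 and HOXB13 that are known for expression in prostate and distal colon, are named after their values were seen. PRAC1 fell from 74.5 ± 3.16 to 22.9 ± 3.22 CPM and PRAC2 from 17.8 ± 0.513 to 4.43 ± 0.517 CPM (SD, n = 3 each). Their log2 fold changes were -1.70 ± 0.09 and -2.00 ± 0.10 (SE; BH-adjusted p in edgeR 4.50e-10 and 2.20e-10), beside -0.84 for HOXB13.

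In the HOXC cluster (chromosome 12, 53938831 to 54056030) HOXC6 and HOXC9 were not past the threshold, HOXC4 and HOXC8 rose, and HOXC10 and HOXC12 fell. HOXC6, a gene often raised in prostate cancer, had 19.0, 19.6 and 18.1 CPM in parental and 17.6, 19.0 and 17.8 CPM in LNCaP-enzaR libraries. HOXC9 had 6.54, 5.97 and 6.96 CPM in parental and 6.43, 6.08 and 5.44 CPM in LNCaP-enzaR libraries. Both overlapped between the lines, with log2 fold changes of -0.06 ± 0.07 and -0.12 ± 0.11 (SE; BH-adjusted p in edgeR 0.494 and 0.349). HOXC13, a regulator of hair keratin genes and the paralogue of HOXB13, had 16.4, 17.4 and 17.6 CPM in parental and 13.4, 13.3 and 12.1 CPM in LNCaP-enzaR libraries. These did not overlap and the adjusted p was 0.000315 in edgeR's test, but the log2 fold change of -0.41 ± 0.08 (SE) was under the fold limit, which makes HOXC13 the one tested HOX gene with a small adjusted p and a fold under 1.5.

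HOXC12, which like HOXC13 is used in the hair follicle, lies next to HOXC13 and differed far more between the lines. HOXC12 (ENSG00000123407.4, 53954903 to 53958956, plus strand) had 5.95, 7.96 and 6.05 CPM in parental and 0.881, 0.566 and 0.675 CPM in LNCaP-enzaR libraries. Its log2 fold change was -3.23 ± 0.18 (SE), a 9.41-fold lower level (adjusted p in edgeR 1.04e-09), and it shared no exonic base with another gene. Per kilobase of exon it went from the fifth place among HOX genes in parental cells, at 2.04 CPM per kilobase, to place 15 in LNCaP-enzaR, at 0.217 CPM per kilobase. HOXC10, a gene of hindlimb patterning, had 15, 23 and 22 counts in parental and 1, 0 and 3 in LNCaP-enzaR libraries. HOXC10 had enough counts to be tested only through the parental libraries. The ratio of its summed counts scaled by library size, parental over LNCaP-enzaR, was 15.7, with an exact 95% counting interval of 5.81 to 59.4 (adjusted p in edgeR 0.000507). Its fitted log2 fold change was -3.87, and -5.02 without LNCaP-enzaR library 3. HOXC11, between them, had no count except for 5 counts in LNCaP-enzaR library 2.

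Towards the other end of the HOXC cluster, HOXC4 and HOXC8 rose. HOXC4 had 0.238, 0.330 and 0.395 CPM in parental and 1.72, 1.37 and 1.57 CPM in LNCaP-enzaR libraries, with a log2 fold change of 2.28 ± 0.25 (SE), a 4.85-fold higher level (adjusted p in edgeR 1.97e-06). HOXC8, a gene of lower thoracic patterning, had 11, 8 and 7 counts in parental and 59, 64 and 53 counts in LNCaP-enzaR libraries (log2 fold change 2.69 ± 0.39, SE; BH-adjusted p in edgeR 2.42e-05). The libraries of the lines were well apart for both genes, but HOXC8 had enough counts to be tested only through the LNCaP-enzaR libraries. HOXC5 was not past the threshold, with 9, 20 and 5 counts in parental and 22, 32 and 13 in LNCaP-enzaR libraries, which overlapped (log2 fold change 0.95 ± 0.58, SE; BH-adjusted p in edgeR 0.164). Exons of other genes covered 67.3% of the exonic bases of HOXC5, 17.5% of those of HOXC4 and 16.1% of those of HOXC6, and HOXC4 and HOXC6 overlap each other. HOXC8 shared none. HOXC-AS1, the antisense gene at HOXC9, rose from 0.270 ± 0.0428 to 0.852 ± 0.164 CPM (mean ± SD of 3 libraries; log2 fold change 1.65 ± 0.30, SE; BH-adjusted p in edgeR 0.000223).

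**Figure D3:**
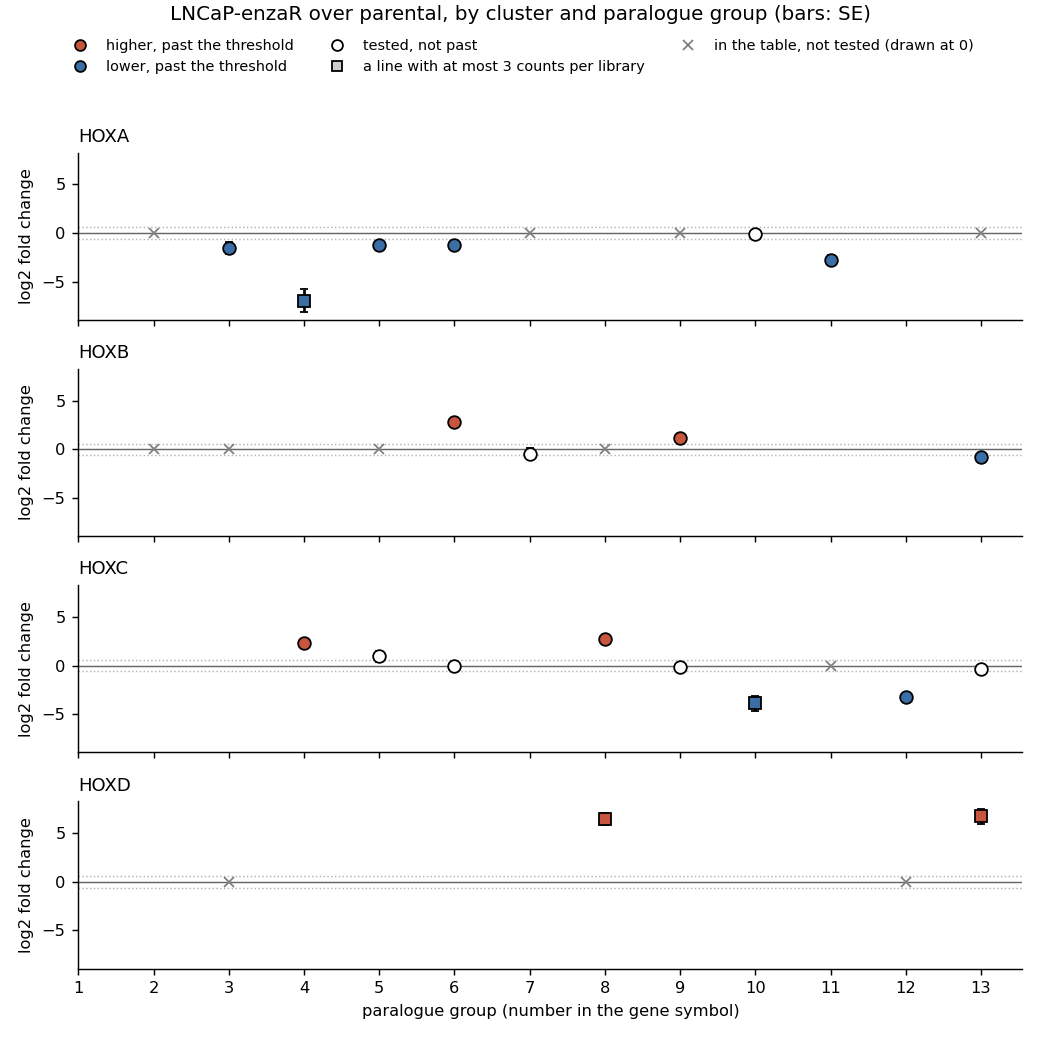
Log2 fold change of HOX genes (LNCaP-enzaR over parental, error bars SE) against paralogue group, one panel per cluster, with dotted lines at a fold of 1.5. Squares mark fitted values that rest on at most 3 counts in each library of one line, open circles genes not past the threshold and crosses genes not tested, drawn at 0. No filled point of HOXA lies above 0, HOXC runs from higher at groups 4 and 8 to lower at groups 10 and 12, and both tested HOXD genes are higher. HOXC8 and HOXC10, like both tested HOXD genes, were tested only through the line in which they are high.

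Over paralogue groups, Spearman's rho between the group number and the log2 fold change was -0.76 in HOXC (n = 8 genes), -0.21 in HOXA (n = 7) and -0.80 in HOXB (n = 4). Over all 21 tested genes rho was -0.02. These are descriptions across genes that share libraries and neighbourhoods. Several of the genes, HOXC8 and HOXC10 among them, were tested only through the line in which they were high, which largely fixed their direction. In groups 1 to 8, 12 genes were tested, of which 4 were higher and 4 lower, with a median log2 fold change of 0.04. In groups 9 to 13, 9 were tested, of which 2 were higher and 4 lower, with a median of -0.41. Over all genes tested, 23.3% were higher and 19.5% lower. Paralogues differed in direction. In group 13, HOXB13 fell (-0.84), HOXD13 rose from at most 1 count in a library and HOXC13 was not past the threshold (-0.41). In group 6, HOXA6 was lower (-1.25), HOXB6 higher (2.85) and HOXC6 not past the threshold (-0.06), and in group 4, HOXA4 was lower and HOXC4 higher.

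The 4 HOXD genes in the table (chromosome 2, 176092721 to 176173102, plus strand) were nearly silent in parental cells. HOXD8 (ENSG00000175879.9, 176129694 to 176132695) had 3, 0 and 0 counts in parental and 80, 131 and 98 counts in LNCaP-enzaR libraries, where its level was 0.927, 1.48 and 0.988 CPM. HOXD13 (ENSG00000128714.6, 176092721 to 176095944), a gene of digit and genital tract development, had 0, 0 and 1 counts in parental and 65, 39 and 46 counts in LNCaP-enzaR libraries. All 3 LNCaP-enzaR libraries were far above all parental ones for both genes. The ratio of summed counts scaled by library size, LNCaP-enzaR over parental, was 98.6 for HOXD8, with an exact 95% counting interval of 33.4 to 481, and 144 for HOXD13, with an interval of 25.4 to 5708 (adjusted p in edgeR 2.55e-07 and 2.21e-06). Fitted log2 fold changes, which depend on the prior count here, were 6.47 and 6.72. Without the one parental library that held counts they were 9.65 for HOXD8 (without library 1) and 8.66 for HOXD13 (without library 3). The level reached was still low, at 0.431 and 0.229 CPM per kilobase of exon, under that of HOXA6 (0.438 CPM per kilobase) in the same libraries. HOXD3 had 4 counts in LNCaP-enzaR library 3 and HOXD12 had 1 count in LNCaP-enzaR library 1, with no count elsewhere. Exons of HOXD-AS2 covered 24.4% of the exonic bases of HOXD8, and HOXD-AS2 had 1 count over all 6 libraries, in LNCaP-enzaR library 1. HAGLR, a long noncoding RNA gene within the cluster, was not past the threshold, with 0, 17 and 11 counts in parental and 19, 7 and 13 in LNCaP-enzaR libraries. HAGLROS, which overlaps HAGLR, was not tested, with 12, 5 and 1 counts in parental and 0 in each LNCaP-enzaR library.

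The promoters of HOXD8 and HOXD13 are shown because these genes went from at most 3 counts in a library to 39 or more. They lie at chr2:176129455-176129693 (plus strand, 239 bases) and chr2:176092471-176092720 (plus strand, 250 bases) in GRCh38.p14, from RefSeq, 5′ to 3′, with capitals for matches to the 5 motifs above.
HOXD8: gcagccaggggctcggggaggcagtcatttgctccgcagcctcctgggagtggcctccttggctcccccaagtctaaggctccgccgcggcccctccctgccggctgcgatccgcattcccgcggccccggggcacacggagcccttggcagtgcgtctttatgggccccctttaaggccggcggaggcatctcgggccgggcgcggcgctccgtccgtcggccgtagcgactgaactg
HOXD13: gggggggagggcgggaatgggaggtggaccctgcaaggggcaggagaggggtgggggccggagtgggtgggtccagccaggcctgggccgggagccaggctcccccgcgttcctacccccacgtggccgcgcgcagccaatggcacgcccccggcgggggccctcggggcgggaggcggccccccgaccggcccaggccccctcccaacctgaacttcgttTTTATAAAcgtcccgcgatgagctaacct
The HOXD8 stretch held none of the motifs. The HOXD13 stretch held TATAAA on both strands in one overlapping run, with starts 29 and 27 bases before the gene. TATAAA was present in 11.1% of all promoters and in 4 of the 15 HOX promoters. CCAATAAA was in none of the 15 and in 0.927% of all promoters, AGGTCA in none and in 12.1%, and TGATTNAT in 1 and in 2.59%. Both HOXD stretches were rich in G and C, with 72.0% and 74.0% GC against a median of 58.8% over the 15 HOX promoters. A match or its absence describes these letters in this window only.

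HOXD lies on the distal long arm of chromosome 2, where lower genes outnumbered higher ones. The 2 tested HOXD genes were higher, but they had enough counts to be tested only through the LNCaP-enzaR libraries. With at most 3 counts in a parental library they could only come out higher, so their direction cannot be weighed against that of the genes around them. Of the other 735 tested genes that start after position 94000000 of chromosome 2, 368 (50.1%) were lower and 85 (11.6%) higher, with a median log2 fold change of -0.69. Of the 494 that start before that position, 42 (8.50%) were lower and 193 (39.1%) higher, with a median of 0.42. Next to the cluster, MTX2 was lower (log2 fold change -0.82 ± 0.06, SE; BH-adjusted p in edgeR 3.27e-08), and LNPK had a log2 fold change of -0.57 ± 0.09 (SE; BH-adjusted p in edgeR 6.15e-05), under the fold limit. LNPK passed that limit, at up to -0.62, when parental library 2 or 3 or LNCaP-enzaR library 2 or 3 was left out. EVX2, a homeobox gene at the end of the HOXD cluster, had at most 1 count in a library. Of the 3 tested protein-coding neighbours within 1000000 bases of the cluster, none was higher and 2 were lower.

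**Figure D4:**
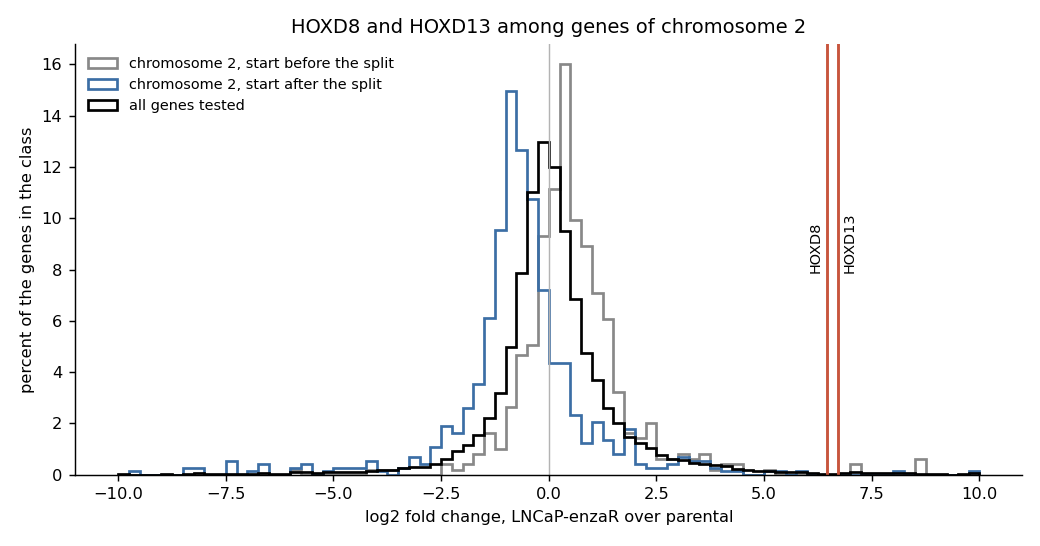
Distribution of the log2 fold change (LNCaP-enzaR over parental) as percent of genes in bins, for tested genes of chromosome 2 that start before (grey) and after (blue) the division given in the text and for all genes tested (black), with values beyond 10 drawn at 10. Vertical lines mark the fitted values of HOXD8 and HOXD13, which were tested only through their LNCaP-enzaR counts and lie to the right of almost all genes. The blue curve is shifted to the left with a median of -0.69.

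Around the 4 clusters together, 87 other protein-coding genes started within 1000000 bases, and 73 were tested. Of these, 18 were higher and 20 lower (52.1% past the threshold, against 42.7% of all genes), with a median log2 fold change of -0.18. The HOXA neighbours did not share the one direction of the HOXA genes, since 2 of 8 were higher and 3 lower. SKAP2 and SNX10 on one side had log2 fold changes of -0.26 and 0.53 and were not past the threshold, although SNX10 passed it, at up to 0.62, without parental library 2 or LNCaP-enzaR library 1. HIBADH on the other side had a log2 fold change of 1.04 ± 0.06 (SE; BH-adjusted p in edgeR 9.25e-10). EVX1, between HOXA13 and HIBADH, had at most 2 counts in a library. Next to HOXB, of whose neighbours 10 of 31 were higher and 6 lower, TTLL6 fell, with a log2 fold change of -1.54 ± 0.17 (SE; BH-adjusted p in edgeR 2.23e-06), SNX11 (0.36) and CALCOCO2 (0.22) were not past the threshold and SKAP1 was not tested. Next to HOXC, where 6 of 31 were higher and 9 lower, CALCOCO1 had a log2 fold change of 1.54 ± 0.08 (SE; BH-adjusted p in edgeR 2.94e-10), and ATP5MC2 (-0.29), SMUG1 (0.42) and CBX5 (-0.28) were not past the threshold.

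Of 17 noncoding RNA genes of the clusters in the table, 7 had enough counts to be tested, of which 1 (HOXC-AS1) was higher and 2 (HOXA-AS2 and HOXA-AS3) lower, 42.9% against 42.7% of all genes. The remaining 4, HOXC13-AS (log2 fold change -0.28), HOTAIRM1 (0.32), HOXA11-AS (-0.25) and HAGLR (0.40), were not past the threshold. HOTAIR and HOTTIP, long noncoding RNAs known for effects on chromatin at HOXD and HOXA, were not tested, with at most 5 and 12 counts in a library.

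The TALE cofactors of HOX proteins moved in both directions. Of 9 listed, 8 were tested, and 2 were higher (MEIS3 and PBX4) and 3 lower (MEIS1, PKNOX2 and PBX3), which is 62.5% past the threshold against 42.7% of all genes. MEIS3 had 5, 3 and 10 counts in parental and 481, 490 and 479 in LNCaP-enzaR libraries, with a log2 fold change of 6.24 ± 0.26 (SE; BH-adjusted p in edgeR 5.67e-11). MEIS1, a partner of HOXA9 in leukaemia, moved the other way, from 225, 217 and 207 counts to 5, 23 and 11 (log2 fold change -4.11 ± 0.33, SE; BH-adjusted p in edgeR 5.67e-08). The libraries of the lines were far apart for both MEIS genes. The log2 fold change of MEIS1 was -4.83 without LNCaP-enzaR library 2, and that of MEIS3 was 6.88 without parental library 3. PKNOX2 fell from 9.63 ± 0.656 to 2.92 ± 0.179 CPM (mean ± SD of 3 libraries; log2 fold change -1.72 ± 0.10, SE; BH-adjusted p in edgeR 2.68e-09). MEIS2 had 0 counts except for 4 in LNCaP-enzaR library 3. PBX2 and PKNOX1 had adjusted p under 0.05 in edgeR's test with log2 fold changes of -0.54 and 0.45, under the fold limit.

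Among 24 chromatin genes known to act on HOX clusters (Polycomb and Trithorax proteins, the demethylases KDM6A and KDM6B, the methyltransferase DOT1L and the insulator protein CTCF), each of which was tested, 5 were higher and 5 lower (41.7%, against 42.7% of all genes), with a median log2 fold change of -0.28. EZH2, the methyltransferase of Polycomb repressive complex 2, fell from 59.3 ± 1.77 to 18.5 ± 0.982 CPM (mean ± SD of 3 libraries; log2 fold change -1.68 ± 0.07, SE; BH-adjusted p in edgeR 2.80e-11). CBX7, a chromodomain subunit of Polycomb repressive complex 1, rose from 16.9 ± 1.07 to 41.2 ± 1.96 CPM (log2 fold change 1.28 ± 0.07, SE; BH-adjusted p in edgeR 1.13e-09), and KDM6B, a demethylase of the mark that EZH2 places, had a log2 fold change of 0.83 ± 0.05 (SE; BH-adjusted p in edgeR 4.57e-09). Of 20 retinoid and caudal genes listed, 17 were in the table and 9 were tested, with 4 higher and 3 lower (77.8%, against 42.7% of all genes) and a median log2 fold change of 0.52. RARB, a retinoic acid receptor, fell from 9.88 ± 0.345 to 1.26 ± 0.234 CPM (mean ± SD of 3 libraries; log2 fold change -2.97 ± 0.13, SE; BH-adjusted p in edgeR 9.56e-11). ALDH1A3, which makes retinoic acid, had a log2 fold change of -1.06 ± 0.08 and RXRA, the partner receptor, of 0.76 ± 0.06 (SE; BH-adjusted p in edgeR 4.68e-08 and 2.79e-08). The part of these regulators in the HOX values was not tested.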

How the data were processed

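Polyadenylated RNA of 3 flasks per line was sequenced as paired-end reads. The authors trimmed reads with Cutadapt, aligned them with STAR to GRCh38 and counted them per gene with featureCounts, and the deposited counts are raw and not normalized. The strand setting, the handling of multi-mapping reads and the unit counted (reads or pairs) are not given in the sources used here. Line and replicate number came from the sample titles.

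Genes were filtered with filterByExpr, which left 19711 genes, scaled by TMM and tested in edgeR 4.0.16 (R 4.3.3) with the robust quasi-likelihood F-test and Benjamini-Hochberg adjustment over all genes tested. Passing the threshold took an adjusted p not above 0.05 and a 1.5-fold difference or more. SE was the size of the log2 fold change divided by the square root of F. Exon lengths and overlaps came from GENCODE version 44, in which 31 of the 32 HOX genes had the deposited coordinates. The test was tried on simulated counts.

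Tested HOX genes were named, except for items that are not reported here, with the 3 smallest p-values of each other list and the 2 nearest neighbours on each side. The HOX genes, lists and neighbours were chosen with earlier results of these data known. Replicate numbers did not pair the libraries, since the residuals of libraries with one number correlated at -0.065 to -0.00041 between the lines. Alternatives were DESeq2 1.42.0, other scalings, filters and fold limits, protein-coding genes only, a replicate block, and leaving out each library or, chosen after seeing the data, the mitochondrial genes.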

Additional observations from a re-analysis of the deposited data

How the results depend on the processing

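Of the 21 tested HOX genes, 20 kept their call, at the 1.5-fold limit, in all 15 refits that could test them. The exception, HOXA3, was not past the threshold with upper-quartile scaling (log2 fold change -1.46, adjusted p in edgeR 0.0517) and in 4 of the refits without 1 library. HOXA10 (0.036) and HOXC6 (0.042) reversed sign with upper-quartile scaling, which moved the median of all genes from 0.01 to 0.11, and neither was past the threshold in any refit. Requiring at least 10 counts in every library removed genes absent from one line, both HOXD genes included, and left 12 HOX genes to test. Of these 12, 7 were past the threshold (3 higher and 4 lower), with 2 of 4 tested in HOXA and 2 of 5 in HOXC. Of 6 TALE cofactors tested with that filter, 3 were past the threshold. The lower counts thus came with fewer genes tested. With no filter 5 noncoding RNA genes were past the threshold, and 15 HOX genes, HOXB5 being the addition. With no minimum fold the counts were 13074 for all genes, 15 for HOX genes, 8 for TALE cofactors, 23 for chromatin regulators, 65 for neighbours and 365 for chromosome 2 before the division. With a fold of at least 2 they were 5561 for all genes and 13 for HOX genes (6 higher and 7 lower), and HOXB13, 1.79-fold lower, was not past that limit. At that fold they were 3 each for TALE cofactors, chromatin regulators and retinoid genes, 19 for neighbours, and 156 and 296 for chromosome 2 before and after the division. DESeq2 called 14 HOX genes. The summed HOX level in parental libraries was 615 CPM with library totals and 587 CPM with upper-quartile scaling.

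Leaving out 1 library at a time gave 13 to 15 HOX genes past the threshold (6 to 7 higher, 7 to 9 lower), and 8372 to 8517 over all genes. HOXA9 entered without parental library 1 and HOXB8 without LNCaP-enzaR library 3. The replicate block gave 14 HOX genes past the threshold and 8212 over all genes, and changed no call of a HOX gene. Among 26 other genes followed through the refits 24 kept their call, SNX10 and LNPK being the exceptions, at the fold limit. PBX4 was not followed singly, and its 1.51-fold higher level also lay at that limit. With library totals, and without parental library 3, 4 TALE cofactors were past the threshold where the main fit had 5. Genes under about 30 counts per library are limited by depth, and single values of HOXA3, HOXB7 and HOXC5 should be read with their SE.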
